A study of Mus musculus with 14 samples.

Results

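miR-193a, its paralog miR-193b and their cluster partner miR-365 were followed through cuprizone-induced demyelination and remyelination of the mouse corpus callosum. The miRNAs were chosen by name in the scanner files (mmu-miR-193, mmu-miR-193b and mmu-miR-365), and they are 3 of the 566 mouse miRNAs on the array. miR-193a was one of the miRNAs the study picked out on these same arrays, so its values are given as a description and without a test. The paper also measured miR-193a by qPCR, and reported a fall with demyelination and a return to baseline by full remyelination. The question was whether the paralog and the partner were lower where miR-193a was lower.

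Single-colour Agilent miRNA arrays measured total RNA punched from the corpus callosum of 14 mice, 1 mouse per array, all male according to the labels. Control mice (n = 4) stayed on normal chow. Cuprizone, a copper chelator that kills mature oligodendrocytes, was mixed into the chow at 0.2 to 0.4% and fed for 4 weeks, from 7 to 8 weeks of age in the methods, and mice were taken at the end of feeding (4wd, n = 4), after 2 further days on regular diet (2dr, n = 4) or after 2 further weeks on it (2wr, n = 2). The labels name no strain, genotype or age for these mice. The toxin reaches the whole animal, and the dose is given as a range, which limits the groups as a model of myelin loss alone.

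MicroRNAs are short RNAs that pair with messenger RNAs, mainly through the seed near their 5′ end, and lower the output of those messages. In the mouse, miR-193a and miR-193b are made from separate loci, each with a miR-365 hairpin nearby on the same strand, and the hairpins of such a cluster can be cut from a shared primary transcript. The miR-193b and miR-365 cluster is known from brown fat differentiation, and miR-193a is best known as a repressor of growth-promoting genes in tumours. Neither is a defining miRNA of oligodendrocytes, the cells that cuprizone removes, for which miR-219 and miR-338 serve as markers.

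The mature sequences are shown because they decide what the arrays could tell apart. They are from RefSeq on GRCm38.p6, where mmu-mir-193 is listed as an older name of Mir193a. The array's names were read as the 3p strands, and the probe sequences were not used here. Capitals mark the seed, bases 2 to 8 from the 5′ end.
miR-193a-3p (chr11:79712009-79712030, plus strand): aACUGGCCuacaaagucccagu
miR-193b-3p (chr16:13449570-13449591, plus strand): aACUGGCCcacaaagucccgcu
miR-365-3p (chr11:79726467-79726488 and chr16:13453895-13453916, both plus strand): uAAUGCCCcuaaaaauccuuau
miR-193a and miR-193b had the same seed and differed at 3 of 22 bases, U9C, A20G and G21C, with positions counted from the 5′ end and the base of miR-193a first. miR-365 has another seed. Among the 466 array miRNAs that could be matched to RefSeq by name, no other miRNA had either seed.

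The hairpins that carry miR-365 are shown because both end in the same mature strand. Capitals mark that strand.
Mir365-2 (chr11:79726400-79726511, plus strand): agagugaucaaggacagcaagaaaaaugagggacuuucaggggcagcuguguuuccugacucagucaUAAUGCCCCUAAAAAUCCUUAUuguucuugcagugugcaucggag
Mir365-1 (chr16:13453840-13453926, plus strand): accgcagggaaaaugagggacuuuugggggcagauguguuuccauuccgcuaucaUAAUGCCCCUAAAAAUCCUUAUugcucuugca
All 22 bases of the mature strand are identical, so the miR-365 signal cannot be assigned to either locus. Mir365-2 lies 14365 bases downstream of Mir193a on chromosome 11, and neither hairpin overlaps another annotated gene. Mir365-1 lies 4238 bases downstream of Mir193b on chromosome 16, where both hairpins fall within the spans of 2 long noncoding RNA genes, Gm32817 and Gm53058.

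The arrays detected 181 to 287 of the 566 mouse miRNAs. They were hybridised on 2 slides, with 2 control, 2 4wd, 3 2dr and 1 2wr array on slide 1 and 2, 2, 1 and 1 on slide 2. The 75th percentile of the signal was 379 to 849 on the control arrays and 217 to 344 on the 4wd arrays. All values below are log2 of the signal divided by this percentile, so 0 is the level of a miRNA at the 75th percentile and lower values are dimmer.

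miR-193a was lower after 4 weeks of cuprizone and within the range of control values after 2 weeks on regular diet. On the control arrays it was at -3.001, -4.37, -4.22 and -3.77. On the 4wd arrays it was at -7.61, -6.13, -5.48 and -5.45. Every 4wd array lay below every control array, an order that 2.67% of the 225 tested miRNAs had; since miR-193a was picked for its fall, nothing is read from this. The means were -3.84 ± 0.62 in controls (SD, n = 4) and -6.17 ± 1.01 in 4wd (SD, n = 4), a difference of -2.33 (SE 0.90, 95% interval -4.28 to -0.38). No fold is given, because several 4wd values lie near background. On slide 1 the difference was -3.18 and on slide 2 it was -1.47, so the lower signal was present on both slides. In tissue of mixed cells, fewer cells of a type and less RNA per cell cannot be told apart. Marker miRNAs of the cell types are given after the comparisons.

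At 2dr the 4 mice were far apart. miR-193a was at -5.25, -9.15, -5.48 and -3.73, and the mean was -5.90 ± 2.30 (SD, n = 4). Replicate 4 was as high as the controls, and replicates 1, 2 and 3 were below all control arrays. The second 2dr array gave a signal of -1.06 and was set to the floor of -9.15, the typical lowest level at which any miRNA was still called detected. The difference from control was -2.06 (SE 0.90), and without that array it was -0.98. Both 2wr arrays, at -4.24 and -3.98, sat between the lowest and highest control values and above all 4wd arrays, the latter as for 4.89% of the tested miRNAs. The difference of 2wr from control was -0.27 (SE 1.103), with an interval from -2.66 to 2.12 that 2 arrays leave wide, and from 4wd it was 2.06 (SE 1.103).

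miR-193a was a dim miRNA, and its lowest values sat close to background. Its total signal was 20.3 to 78.3 on the control arrays and 1.65 to 7.86 on the 4wd arrays. It was detected on 4 of 4 control, 3 of 4 4wd, 3 of 4 2dr and 2 of 2 2wr arrays. The arrays without detection were 4wd replicate 1 and 2dr replicate 2. Without both of them, the differences from control were -1.85 at 4wd and -0.98 at 2dr. The other strand of the same hairpin, listed as miR-193*, was detected on 1 of 14 arrays, a control array with a signal of 9.70, so the strands could not be compared.

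Both probes of miR-193a gave the lower signal at 4wd. The dimmer probe gave 3.08 to 12.5 on the control arrays and -2.04 to 1.41 on the 4wd arrays, and it was at the floor on 4 of the 14 arrays. The brighter probe gave 16.3 to 66.5 and 3.69 to 6.46. Neither range overlapped between the groups before scaling. The same held for both probes of miR-365 and for neither probe of miR-193b. With no scaling the median 4wd difference over all tested miRNAs was -0.93, so the control arrays were brighter in general. The share of miRNAs without overlap before scaling was not counted, and nothing is read from it. After scaling, the differences of the miR-193a probes were -2.28 and -1.79. On the 4wd arrays 0, 2, 0 and 1 of the 10 spots of the brighter probe were well above background, and on each control array all 10 were. None of the spots was saturated.

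**Figure D1:**
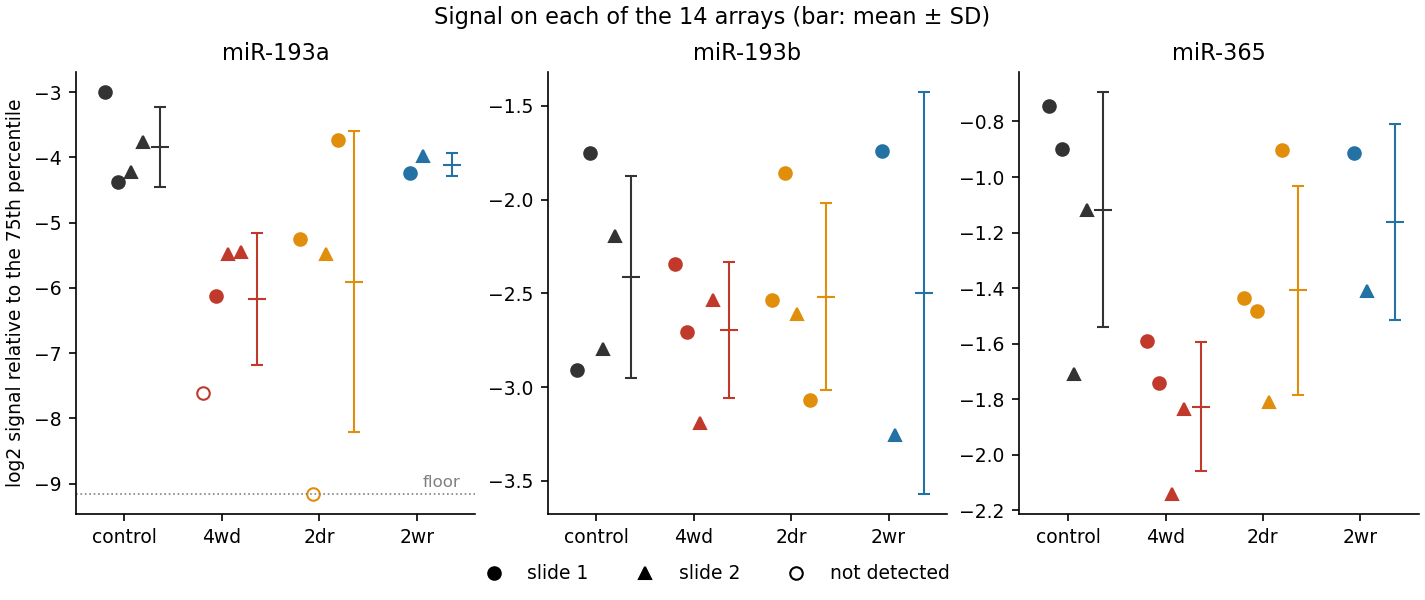
log2 signal relative to the 75th percentile (vertical axis, a separate scale for each miRNA) of miR-193a, miR-193b and miR-365 on each array by group, with circles for slide 1, triangles for slide 2, open symbols for arrays on which the miRNA was not detected, and bars for the mean ± SD. The 4 4wd arrays are below all control arrays for miR-193a and 3 of 4 are for miR-365, while for miR-193b the groups overlap.

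**Figure D2:**
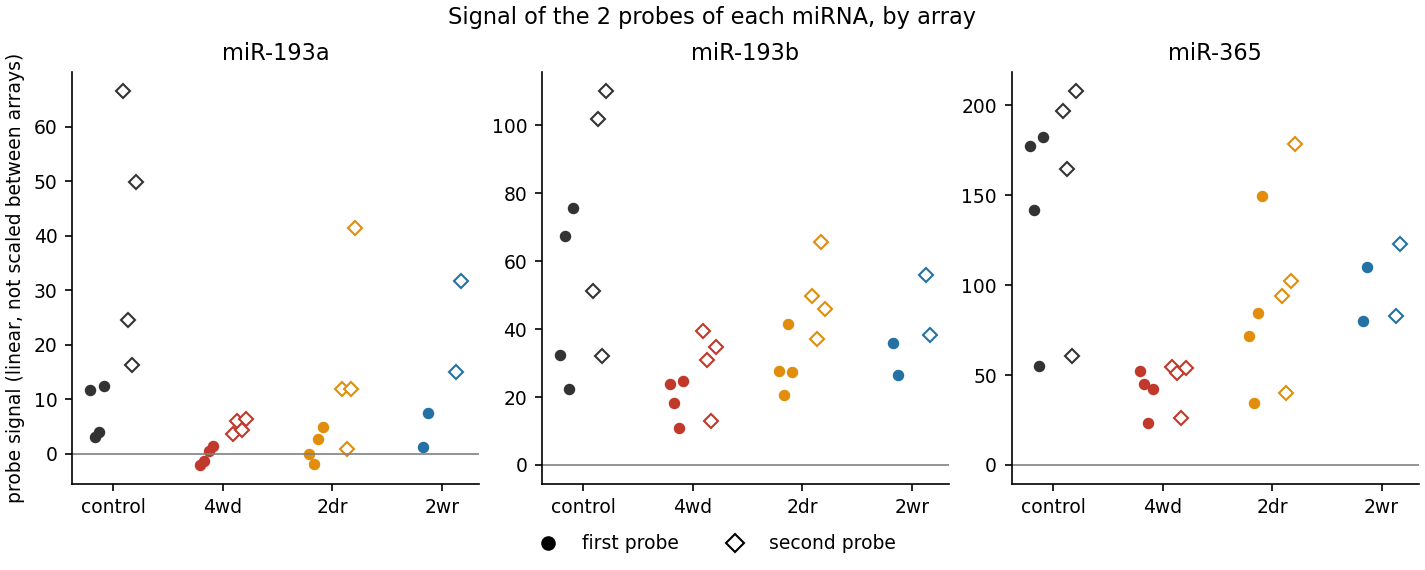
Signal of the 2 probes of each miRNA on each array by group, on a linear scale without scaling between arrays (filled circles for the first probe, open diamonds for the second). For miR-193a the control arrays reach 66.5 while the 4wd arrays stay at or below 6.46, and the first probe is at or near 0 on the 4wd arrays.

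Neither miR-193b nor miR-365 was called, by limma at an adjusted p under 0.05 and at least 2-fold, in any comparison, and miR-193a was not tested. Calls were few among all miRNAs too. They were 0.444% of the 225 tested miRNAs for 4wd against control, 0.889% for 2dr against control, 0% for 2wr against control and 0% for 2wr against 4wd. Without adjustment, 23, 27, 2 and 11 miRNAs had a limma p under 0.05 in these comparisons. The comparisons with control share the control arrays. Each array is a separate mouse, so the p-values measure the spread between mice and between arrays together.

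miR-193b, the paralog with the same seed, overlapped the controls at 4wd and 2dr, and its 2 2wr arrays lay on either side of them. On the control arrays it was at -2.91, -1.75, -2.80 and -2.19. On the 4wd arrays it was at -2.34, -2.71, -3.19 and -2.53. The groups overlapped, with 1 of 4 4wd arrays below all control arrays. The means were -2.41 ± 0.54 in controls and -2.69 ± 0.36 in 4wd (SD, n = 4 each), a difference of -0.28 (SE 0.38, 95% interval -1.10 to 0.54; limma adjusted p = 0.876; exact permutation p = 0.429, two-sided). On the linear scale the interval reaches from 0.466 to 1.45 of the control level, which includes a 2-fold fall. Within slides the difference was -0.20 and -0.37.

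After the return to regular diet miR-193b again overlapped the controls at 2dr, and at 2wr it lay on either side of them. At 2dr it was at -2.53, -1.86, -2.61 and -3.07, and the difference from control was -0.11 (SE 0.38; limma adjusted p = 0.888; exact permutation p = 0.800), of either sign depending on the scaling. At 2wr it was at -1.74 and -3.25, the former above and the latter below all control arrays, and the mean difference from control was -0.085 (SE 0.46; limma adjusted p = 0.996; exact permutation p = 0.933), also of either sign depending on the scaling. Those 2 arrays were on different slides and their spread, 1.07 (SD), was the widest of the 4 groups for this miRNA. From 4wd to 2wr the difference was 0.20 (SE 0.46; limma adjusted p = 0.962; exact permutation p = 0.800). miR-193b was detected on all 14 arrays with signals of 23.8 to 186, and its 2 probes gave 4wd differences of -0.27 and -0.29.

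miR-365, which either locus can make, was lower on average at 4wd, and it did not pass the test over all miRNAs. On the control arrays it was at -0.74, -0.90, -1.71 and -1.12. On the 4wd arrays it was at -1.59, -1.74, -2.14 and -1.84. Of the 4 4wd arrays 3 lay below all control arrays, and the fourth, at -1.59, lay above the lowest control array, which was replicate 3 on slide 2. The means were -1.12 ± 0.42 in controls and -1.83 ± 0.23 in 4wd (SD, n = 4 each), a difference of -0.71 (SE 0.26, 95% interval -1.28 to -0.14). This is 1.64-fold lower, with an interval on the linear scale from 0.413 to 0.906 of the control level. The limma p was 0.0183 before adjustment and 0.402 after it, and the exact two-sided permutation p was 0.0571, where the smallest that 4 against 4 arrays allow is 0.0286. Before adjustment, 23 of the 225 tested miRNAs had a p under 0.05 in this comparison.

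Within each slide the 4wd values of miR-365 did not overlap the control values. The difference was -0.84 on slide 1 and -0.57 on slide 2, with 2 arrays of each group on each slide. Of the tested miRNAs 8% lay below their controls on both slides in this way, and miR-193a and miR-365 were among them while miR-193b was not. Its 2 probes gave differences of -0.72 and -0.70, and it was detected on all 14 arrays with signals of 49.2 to 391.

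After the return to regular diet miR-365 differed less from the controls than at 4wd. At 2dr it was at -1.44, -1.48, -1.81 and -0.90, and the difference from control was -0.29 (SE 0.26; limma adjusted p = 0.550; exact permutation p = 0.343). The median over all tested miRNAs in that comparison was -0.25, so relative to it miR-365 differed by -0.036. Within slides the 2dr difference of miR-365 was -0.45 and -0.40. With the slide as a block it was -0.41, or -0.17 relative to the median of that fit. At 2wr it was at -0.91 and -1.41, within the control range, and the difference from control was -0.044 (SE 0.32, 95% interval -0.74 to 0.65; limma adjusted p = 0.996; exact permutation p = 0.933), of either sign depending on the scaling. Both 2wr arrays were again above all 4wd arrays, as for 4.89% of the tested miRNAs. The difference between 2wr and 4wd was 0.67 (SE 0.32; limma adjusted p = 0.886; exact permutation p = 0.133, the smallest that 2 against 4 arrays allow).

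**Figure D3:**
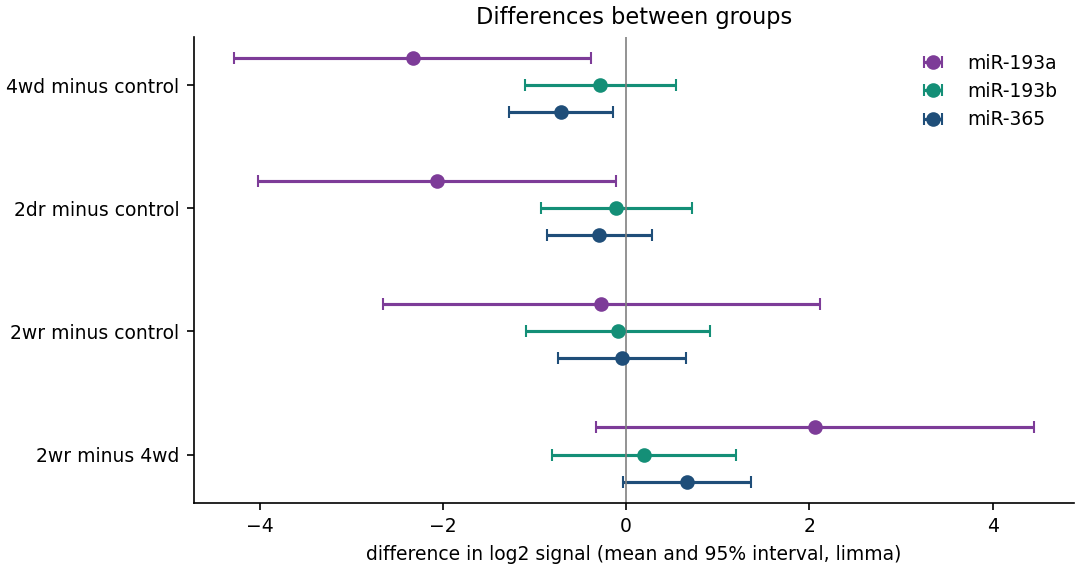
Difference in log2 signal between groups (horizontal axis, mean and 95% interval from limma) for miR-193a, miR-193b and miR-365 in the 4 comparisons. At 4wd against control the intervals of miR-193a and miR-365 lie below 0 and that of miR-193b spans 0, without adjustment for the 225 miRNAs tested and, for miR-193a, as a description only.

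For each of the 3 miRNAs the group means ran in the order control, 2wr, 2dr and 4wd from high to low, as they did for 14 of the 225 tested miRNAs (6.22%). The order is that of the main scaling. With the 75th percentile taken over all mouse miRNAs, miR-193b lay above control by 0.18 at 2dr and 0.089 at 2wr. miR-365 then lay above control by 0.13 at 2wr. Most neighbours in the order of the main scaling were closer than their spread. For miR-193a the largest step, 1.79 between 2wr and 2dr, was smaller than the SD of 2.30 at 2dr. For miR-193b each step was 0.18 or less against SDs of 0.36 to 1.07. For miR-365 the step from 2dr to 4wd, 0.42, exceeded both SDs, 0.38 and 0.23, and the other steps did not exceed theirs.

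The level of miR-365 relative to miR-193b on the same array removes the scaling between arrays. This log2 ratio, chosen after the values had been seen, was 2.16, 0.85, 1.09 and 1.07 on the control arrays and 0.75, 0.97, 1.05 and 0.70 on the 4wd arrays. The 4wd values lay close together and 2 of them were below all controls. The means were 1.29 ± 0.59 and 0.87 ± 0.17 (SD, n = 4 each), a difference of -0.43 (exact permutation p = 0.143, or 0.571 adjusted over the 4 comparisons). So a larger fall of miR-365 than of miR-193b was not shown. At 2dr the ratio differed from control by -0.19 (exact permutation p = 0.657) and at 2wr by 0.041 (exact permutation p = 0.933), and between 2wr and 4wd by 0.47 (exact permutation p = 0.400). The ratio of miR-193a to miR-193b was -1.43 ± 1.03 in controls and -3.47 ± 1.28 in 4wd, and that of miR-193a to miR-365 was -2.72 ± 0.52 and -4.34 ± 1.20 (SD, n = 4 each), given without a test.

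Across the arrays miR-193a had a positive r with miR-365 and a negative r with miR-193b over the 14 arrays, a contrast that was not itself tested. Over all 14 arrays Pearson's r of miR-193a with miR-365 was 0.51 and Spearman's rho 0.68. Within slides r was 0.80 over the 8 arrays of slide 1 and 0.87 over the 6 arrays of slide 2, with rho of 0.83 and 0.94. Both arrays that lacked miR-193a were the farthest from the median, and without them r was 0.79 and rho 0.78. These correlations hold the group differences for which miR-193a was picked, so they are given without a p. With the group means taken out, r was 0.19 (exact permutation p within groups = 0.609, also 0.609 after adjustment over the 3 pairs), and without the 2 arrays that lacked miR-193a it was 0.56 (exact permutation p = 0.200). An association between mice of the same group was therefore not shown.

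Between miR-193a and miR-193b the sign of the correlation changed with the arrays taken. Their r was -0.33 and rho -0.29 over 14 arrays, r was -0.37 on slide 1 and 0.12 on slide 2, and it was 0.013 without the 2 arrays that lacked miR-193a. With the group means taken out r was -0.62 (exact permutation p = 0.00481, adjusted over the 3 pairs 0.0144). Without the 2 arrays that lacked miR-193a it was -0.49 (exact permutation p = 0.0509, adjusted 0.153), so the call rests on those arrays. miR-193b and miR-365 had r 0.33 (permutation p = 0.242, adjusted 0.249) and rho 0.22 (permutation p = 0.445, adjusted 0.445). Within slides r was -0.013 and 0.45 (exact permutation p = 0.979 and 0.369). Without the 2 arrays farthest from the median of miR-193b it was 0.0064 (permutation p = 0.984).

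**Figure D4:**
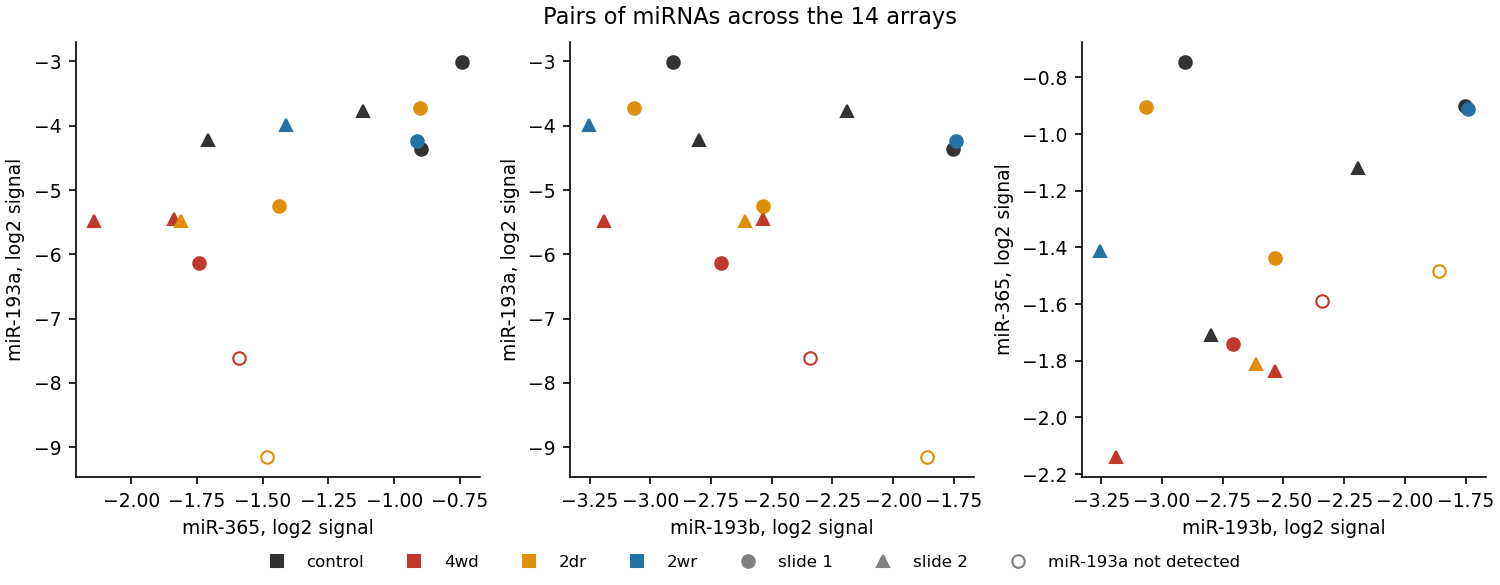
log2 signal of each pair of the 3 miRNAs on the 14 arrays, coloured by group, with circles for slide 1, triangles for slide 2 and open symbols for both arrays on which miR-193a was not detected. Over all 14 arrays r was 0.51 for miR-193a with miR-365, -0.33 for miR-193a with miR-193b and 0.33 for miR-193b with miR-365, and without both arrays lacking miR-193a it was 0.79, 0.013 and 0.41.

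Among the 224 other tested miRNAs, miR-365 was the 33rd most like miR-193a by r over the 14 arrays, and the 11th with the mean of each slide taken out (r 0.77). miR-193b was the 188th and the 174th. The miRNAs most like miR-193a were miR-674 (r 0.79), miR-194 (r 0.77) and miR-138* (r 0.76). Those most like miR-365 were miR-100 (r 0.89), miR-151-5p (r 0.88) and miR-362-3p (r 0.84), and those most like miR-193b were miR-299* (r 0.66), miR-674* (r 0.64) and miR-337-5p (r 0.56). These points share arrays and scaling, and the values are descriptions. miR-100, miR-151-5p and miR-362-3p differed between 4wd and control by -0.60, -0.54 and -1.05, while miR-299*, miR-674* and miR-337-5p differed by 0.16, -0.19 and 0.031.

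Markers of the cells in the tissue are given beside these differences, and they did not all move alike. At 4wd the neuronal miR-124, miR-128, miR-129-3p and miR-132 differed from control by 0.059, -0.39, 0.34 and -0.050. The vessel markers miR-126-3p and miR-143 differed by -0.027 and -0.38, and miR-145 was not tested. The summed scaled signal of the oligodendrocyte markers miR-219, miR-338-3p and miR-338-5p was 1.96 to 10.9 in controls, 1.44 to 2.63 in 4wd, 1.76 to 6.73 in 2dr and 3.10 to 3.54 in 2wr, and the 3 miRNAs differed between 4wd and control by -0.83, -1.17 and -2.49 on the log2 scale (limma adjusted p = 0.601, 0.402 and 0.402). None of these passed the test, and miR-338-5p was detected on 8 of 14 arrays. The summed signal of the 4 myeloid markers was 0.0255 to 0.0581 in controls, 0.0645 to 0.0941 in 4wd, 0.0745 to 0.437 in 2dr and 0.0489 to 0.199 in 2wr. The single miRNAs of this list differed in direction at 4wd. miR-155, a miRNA of activated macrophages and microglia, was detected on 0 of 4 control, 1 of 4 4wd, 4 of 4 2dr and 1 of 2 2wr arrays. It was called in 4wd and 2dr against control (limma adjusted p = 0.0385 and 0.00222). It passed the detection filter only through 2dr, where it was high, so these p-values are given as a description. With no filter the call at 4wd, the only call in that comparison, was lost. It was also lost with other settings, among them quantile normalization, no scaling, either other floor and leaving out any of several single arrays. Since no control array detected miR-155, its control level is not known and its 2dr level is given without a fold. Its 4wd level, detected on 1 array, is given without a fold. miR-142-3p differed from control by 1.69 at 4wd and 2.69 at 2dr (limma adjusted p = 0.428 and 0.201), miR-223 by -0.91 and 0.030 (limma adjusted p = 0.553 and 0.966), and miR-142-5p was detected on 1 of 14 arrays and was not tested. miR-223 was detected on 4 of 4 control arrays and on 0 of 4 4wd arrays. The 4 neuronal markers were all detected on 14 of 14 arrays. Their summed signal was 23.2 to 30.1 in controls and 16.04 to 41.0 in 4wd. Of the 2 red cell markers, miR-144 was detected on 0 of 14 arrays and miR-451 on all 14. miR-451 differed from control by -0.45 at 4wd (limma adjusted p = 0.617). The red cell markers summed to 0.443 to 0.972 in controls and 0.316 to 0.590 in 4wd. The vessel markers summed to 0.777 to 1.26 in controls and 0.699 to 1.06 in 4wd. The part of these cell types in the miR-193a and miR-365 values was not tested.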

How the data were processed

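The authors extracted total RNA from punches of corpus callosum, labelled it with Cy3 and hybridised each sample to an Agilent mouse miRNA array. Their image software (Agilent Feature Extraction 10.5.1.1 in the submitters' processing notes) removed background, added up the probes of a miRNA and set a detection flag. The deposited scanner files hold these signal intensity values on a linear scale, with no normalization between arrays. A second deposited table holds the authors' log2 values. These equalled log2 of that signal, raised to 1 where lower, minus 1 constant for each array, within 0.01 for 559 or 560 of 560 miRNAs on 13 arrays and for 368 on 4wd replicate 1, and they were used as an alternative. Direction and scale were thus known, and each constant lay near the 75th percentile of all mouse miRNAs on the array.

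Each array was scaled to the 75th percentile of its signals for the 170 miRNAs seen on all 14 arrays, with a floor of 0.00176 (log2 -9.15) before log2. The 225 miRNAs seen on all arrays of 1 or more groups were tested with limma 3.58.1 (R 4.3.3; lmFit, contrasts.fit, eBayes) over the 4 groups, with Benjamini-Hochberg adjustment; calls needed an adjusted p under 0.05 and at least 2-fold. Exact permutation tests of group differences used scipy 1.17.1. Correlations were permuted separately, with 100000 resamples in place of enumeration over 10 or more arrays. With the group means taken out, all orders within groups were enumerated. The fit was tested on simulated data. The number of arrays limits the precision. No 2 arrays of a group were near copies, the closest pair differing by a median of 0.294.

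The members, markers and tests were chosen with earlier results of these data known. The miRNAs named are the 3 members, miR-193*, the markers and the 3 miRNAs with the highest Pearson's r to each member. Same-numbered arrays of different groups correlated in their deviations from -0.61 to 0.74 (13 of 18 pairs over 0.1). The 13 pairs over 0.1 were those on the same slide, and pairs on different slides ran from -0.61 to 0.096. These correlations thus went with the slide, which the main fit did not include. The numbers were treated as names, not as pairs of mice. Alternatives were other background corrections, scalings, filters, floors, blocks and tests, and leaving out arrays; results without both arrays lacking miR-193a, and the ratio of miR-365 to miR-193b, were added after seeing the data.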

Additional observations from a re-analysis of the deposited data

How the results depend on the processing

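The lower signal of miR-193a at 4wd kept its sign under every setting except normexp background correction (an offset of 50 on the spots' median signals, the files used here holding medians), which gave 0.80, and it was -3.30 with no scaling between arrays. The median difference over the 225 tested miRNAs at 4wd was 0.82 with normexp and -0.93 with no scaling; relative to these medians, miR-193a differed by -0.024 and -2.37, miR-193b by -0.26 and -0.32, and miR-365 by -0.85 and -0.75. With normexp the 4wd difference of miR-193b was 0.56 and that of miR-365 -0.035. Over its 29 alternatives the 4wd difference of miR-365 stayed below 0, from -1.68 to -0.035, with adjusted p from 0.142 to 0.932, so it was not called under any of them. The cause of these shifts was not tested.

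normexp also gave -0.038 for miR-193a and 0.014 for miR-193b at 2dr, 0.012 for miR-193b at 2wr, and for 2wr minus 4wd -0.72, -0.54 and -0.0077 for miR-193a, miR-193b and miR-365. The small differences of miR-193b turned sign with a percentile over all mouse miRNAs (0.18 at 2dr, 0.089 at 2wr), quantile normalization (0.12, 0.030) and the authors' values (0.16, 0.057). That of miR-365 at 2wr did so with the first and the last of these (0.13, 0.099).

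Leaving out 1 array at a time gave, for miR-193a, -2.57 to -1.85 at 4wd, -2.79 to -0.98 at 2dr (-0.98 without 2dr replicate 2), -0.45 to 0.010 at 2wr and 1.58 to 2.30 for 2wr minus 4wd. For miR-193b the ranges were -0.45 to -0.062, -0.32 to 0.11 (above 0 without control replicate 2 or 2dr replicate 4), -0.84 to 0.67 (above 0 without control replicate 2 or 2wr replicate 2) and -0.56 to 0.95 (below 0 without 2wr replicate 1). For miR-365 they were -0.91 to -0.58, -0.49 to -0.16, -0.29 to 0.21 (above 0 without control replicate 1 or 2 or 2wr replicate 2) and 0.42 to 0.92. With 1 array left at 2wr, that array was given the spread of the remaining groups.

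The replicate number as a replicate block left the 4wd and 2dr differences as they were and turned miR-193a at 2wr to 0.35. The adjusted p of miR-365 at 4wd was 0.188 with that block and 0.142 with the slide as a block. No call of miR-193b or miR-365 changed. By their deviations, 8 of 14 arrays were most like an array of their own number.

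Of all miRNAs, 1 was called at 4wd. It was 0 with the mean of the spots, quantile normalization, no scaling, no filter, miRNAs detected on all arrays, either other floor, the methods' overall and Tukey test, or without both arrays lacking miR-193a, and 81 with normexp. It ranged from 0 to 1 when arrays were left out, being 0 without replicate 1, 2 or 3 of control, 4wd or 2dr. At 2dr 2 were called, 0 with normexp, no scaling and the methods' test, and 1 with no filter, miRNAs detected on all arrays and the higher floor, and 1 to 2 when arrays were left out (1 without control replicate 2 or 4). At 2wr 0 were called, 1 with a percentile over all mouse miRNAs, the slide block and the authors' values, and 0 to 1 when arrays were left out (1 without control replicate 4 or 2wr replicate 1). For 2wr against 4wd 0 were called throughout. The filter to miRNAs detected on all arrays gives no value for miR-193a.

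The correlation of miR-193a with miR-193b was 0.12 on slide 2, 0.013 without the 2 farthest arrays, which are both arrays lacking miR-193a, and -0.62 with group means taken out. That of miR-193a with miR-365 was 0.80 and 0.87 within slides and 0.79 without those arrays. That of miR-193b with miR-365 was -0.013 on slide 1. miR-193a near background limits what can be said of its size at 4wd and 2dr, and the 2wr group has 2 arrays.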
